A study of Mustela putorius furo with 20 samples.

Results

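The secreted class 3 semaphorins and the neuropilins that bind them were followed in the outer subventricular zone (oSVZ) of the ferret (*Mustela putorius furo*) during cortical folding. The set holds 9 genes of the 32057 in the count table, which are the ligands *SEMA3A*, *SEMA3B*, *SEMA3C*, *SEMA3D*, *SEMA3E*, *SEMA3F* and *SEMA3G* and the receptors *NRP1* and *NRP2*. Each had 1 Ensembl gene, which were ENSMPUG00000018300 (*SEMA3A*), ENSMPUG00000013094 (*SEMA3B*), ENSMPUG00000018291 (*SEMA3C*), ENSMPUG00000018301 (*SEMA3D*), ENSMPUG00000018299 (*SEMA3E*), ENSMPUG00000013260 (*SEMA3F*), ENSMPUG00000016770 (*SEMA3G*), ENSMPUG00000005925 (*NRP1*) and ENSMPUG00000000435 (*NRP2*). Of the 9, 8 passed the filter on low counts. The oSVZ lies below the cortical plate and holds basal radial glia, and it was cut out by laser below the coronal gyrus (CG) and below the suprasylvian sulcus (SSS). Tissue came from the left hemisphere of ferret kits, with sex not a variable and no treatment named, at postnatal day 5 (P5, the onset of folding) and postnatal day 15 (P15, the middle of folding). There were 5 animals at each age and both regions of each animal, so 20 libraries formed the groups P5 CG, P5 SSS, P15 CG and P15 SSS, with n = 5 in each. Animals are numbered 1 to 5 within an age, and those of the ages are different animals. A library pooled consecutive coronal sections of 1 region of 1 animal, and its area had been outlined on Nissl-stained sections and not by a marker gene.

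The members were chosen from genes that had already been named on these same libraries. That applies to the changes with age of *SEMA3A*, *SEMA3C*, *SEMA3D*, *SEMA3E* and *NRP2* and to the regional difference of *SEMA3D* at P5. These values are therefore described with their fold change and standard error (SE) and without a test, whereas the other comparisons of the members carry a false discovery rate (FDR) adjusted over all 12669 genes tested. Levels are given as CPM (counts-per-million), that is, a gene's reads relative to all assigned reads of its library after scaling between libraries by the TMM method of edgeR. CPM are not corrected for gene length, so that levels of a gene were compared between groups. Sums, shares and ratios over several genes are of reads and not of transcripts.

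Class 3 semaphorins are secreted proteins that steer growing axons and migrating neurons, and they are best known from mouse and chick. Most of them bind a neuropilin, which has little signalling of its own and passes the signal on through a plexin of the A class. *SEMA3E* is the known exception, since it can bind the plexin PLXND1 directly. Neuropilins also bind vascular endothelial growth factors (VEGF), so they belong to the vessel wall as well as to the axon. In the developing cortex *SEMA3A* repels axons and orients young neurons through NRP1, *SEMA3C* attracts cortical axons that head for the midline, and *SEMA3F* acts mainly through NRP2. In the ferret genome assembly ASM1176430v1.1 of RefSeq, *SEMA3E*, *SEMA3A* and *SEMA3D* lie next to each other with 1 further protein-coding gene between *SEMA3E* and *SEMA3A*, and *SEMA3C* lies 4 protein-coding genes away. *SEMA3B* and *SEMA3F* have 3 protein-coding genes between them.

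Assigned reads ranged from 2941880 to 3545754 in the P5 CG, from 2785162 to 4277326 in the P5 SSS, from 2618470 to 4095208 in the P15 CG and from 2488477 to 3542289 in the P15 SSS. The P15 SSS library of animal 4 was the sparsest. It lacked reads for 1371 tested genes, whereas the rest of the P15 SSS libraries lacked them for 49 to 366. Results that rest on it are given with and without it. Of the radial glia markers, 9 of 11 were in the table under their symbols and all 9 were tested. Their summed level was 9362 to 11594 CPM in the P5 CG, 6878 to 8541 CPM in the P5 SSS, 7735 to 10571 CPM in the P15 CG and 7048 to 9512 CPM in the P15 SSS, most of it from *FABP7* and *PTPRZ1*. *FAM107A* was at 0 in at least 1 library of each P5 group, with a mean of 1.17 CPM in the P5 CG and 0.85 CPM in the P5 SSS, and *SOX2* and *HOPX* were not analysed here.

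**Figure D1:**
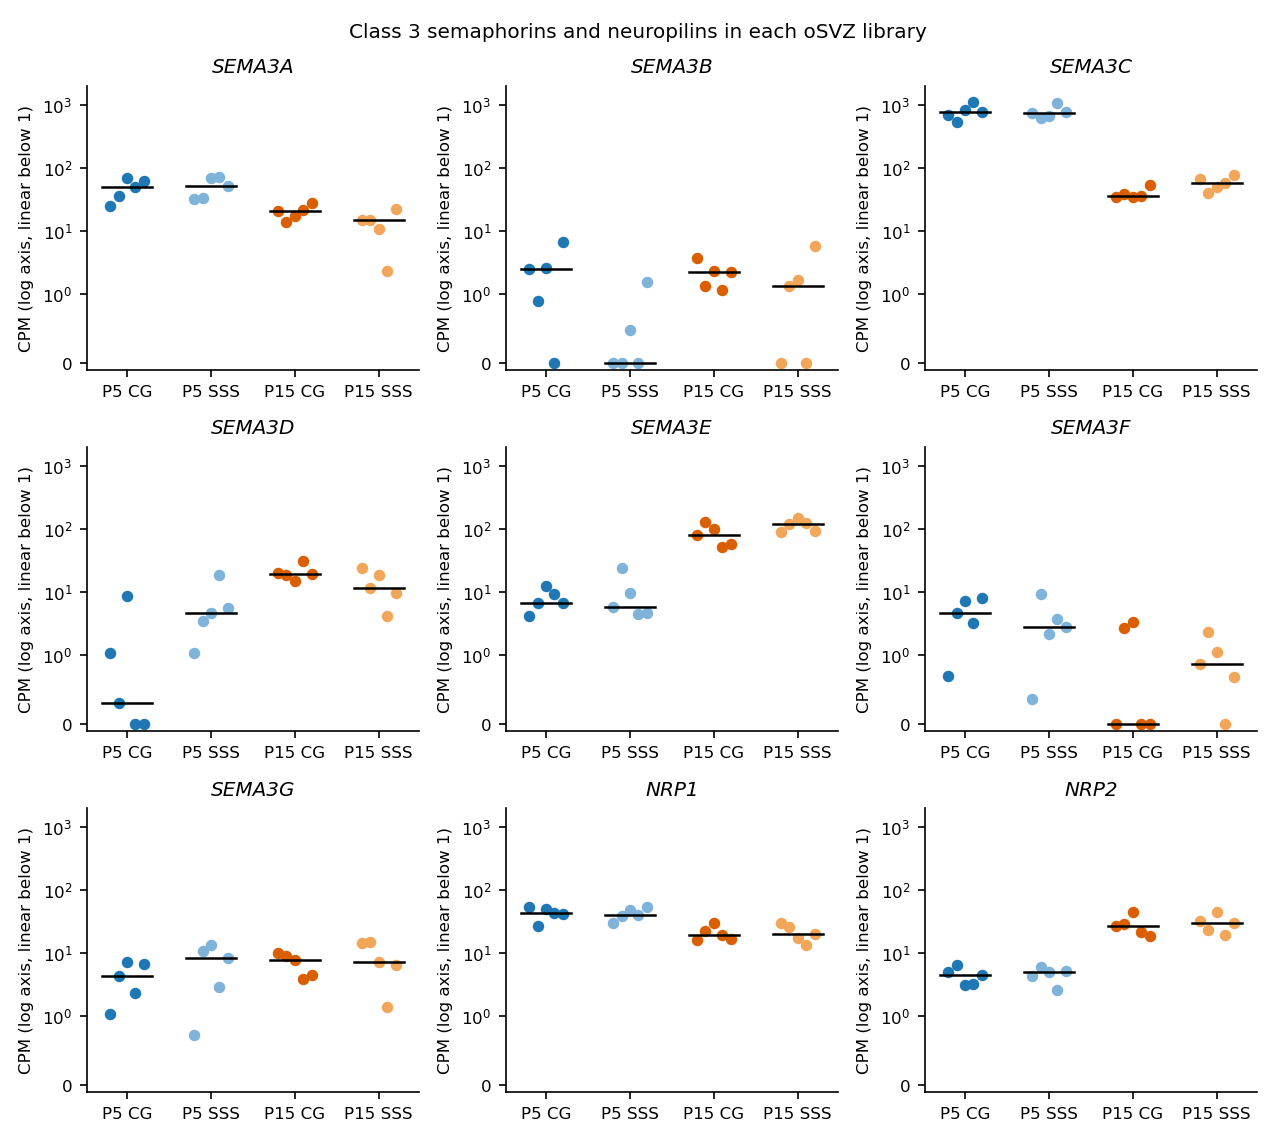
Levels of the 9 members in the 20 libraries, in CPM on a log axis that is linear below 1. Each point is 1 library (1 region of 1 animal), in the order of animals 1 to 5, and the bar is the group median. *SEMA3C* and *NRP1* lie lower at P15, *SEMA3E* and *NRP2* lie higher at P15, and *SEMA3B* and *SEMA3F* are at 0 in several libraries.

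*SEMA3C* was abundant at P5 and scarce at P15 in both regions. In the P5 CG it measured 679.8, 532, 843, 1113 and 778 CPM in animals 1 to 5, and in the P15 CG 33.9, 38.1, 33.9, 35.0 and 52.3 CPM. In the SSS it measured 736, 621, 664, 1080 and 761 CPM at P5 and 66.1, 39.9, 49.7, 56.8 and 76.3 CPM at P15. The lowest P5 library thus lay far above the highest P15 library, and the ages did not overlap in either region. In the CG the mean was 789 ± 216 CPM at P5 and 38.7 ± 7.83 CPM at P15 (SD, n = 5), and in the SSS 773 ± 181 and 57.8 ± 14.1 CPM (SD, n = 5). The fitted level was 20.4-fold lower at P15 in the CG (log2 fold change -4.35, SE 0.23) and 13.3-fold lower in the SSS (log2 fold change -3.74, SE 0.22). In whole tissue such as this, fewer cells of a type and less RNA per cell cannot be told apart.

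*SEMA3E* took the opposite course. It measured 4.17, 6.601, 12.3, 9.29 and 6.64 CPM in the P5 CG and 79.1, 127, 97.6, 51.4 and 56.7 CPM in the P15 CG. In the SSS the values were 5.73, 23.7, 9.53, 4.34 and 4.52 CPM at P5 and 88.0, 119, 147, 124 and 91.4 CPM at P15. The highest P5 library, the SSS of animal 2, stayed below the lowest P15 library. The fitted level was 10.5-fold higher at P15 in the CG (log2 fold change 3.39, SE 0.39) and 11.9-fold higher in the SSS (log2 fold change 3.57, SE 0.39). Without animal 2 of P5 the SSS value was 4.24 (SE 0.37), or 18.9-fold.

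The ligand that took most class 3 semaphorin reads was *SEMA3C* at P5 and *SEMA3E* at P15. *SEMA3C* took 91.9 ± 2.86% of all class 3 semaphorin reads in the P5 CG and 90.7 ± 2.99% in the P5 SSS, against 22.9 ± 5.73% in the P15 CG and 27.7 ± 7.05% in the P15 SSS (SD, n = 5). *SEMA3E* took 0.913 ± 0.291% and 1.26 ± 1.23% in the CG and SSS at P5, and 46.8 ± 11.4% and 54.3 ± 11.01% at P15 (SD, n = 5). The share of *SEMA3C* was at least 87.1% in each of the 10 P5 libraries and at most 35.9% in each of the 10 P15 libraries. The summed level of the 7 ligands was 858 ± 227 and 851 ± 191 CPM at P5 in the CG and SSS, and 172 ± 24.3 and 209.6 ± 17.3 CPM at P15 (SD, n = 5). These are shares of reads, and since gene length was not corrected for they are not shares of transcripts.

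**Figure D2:**
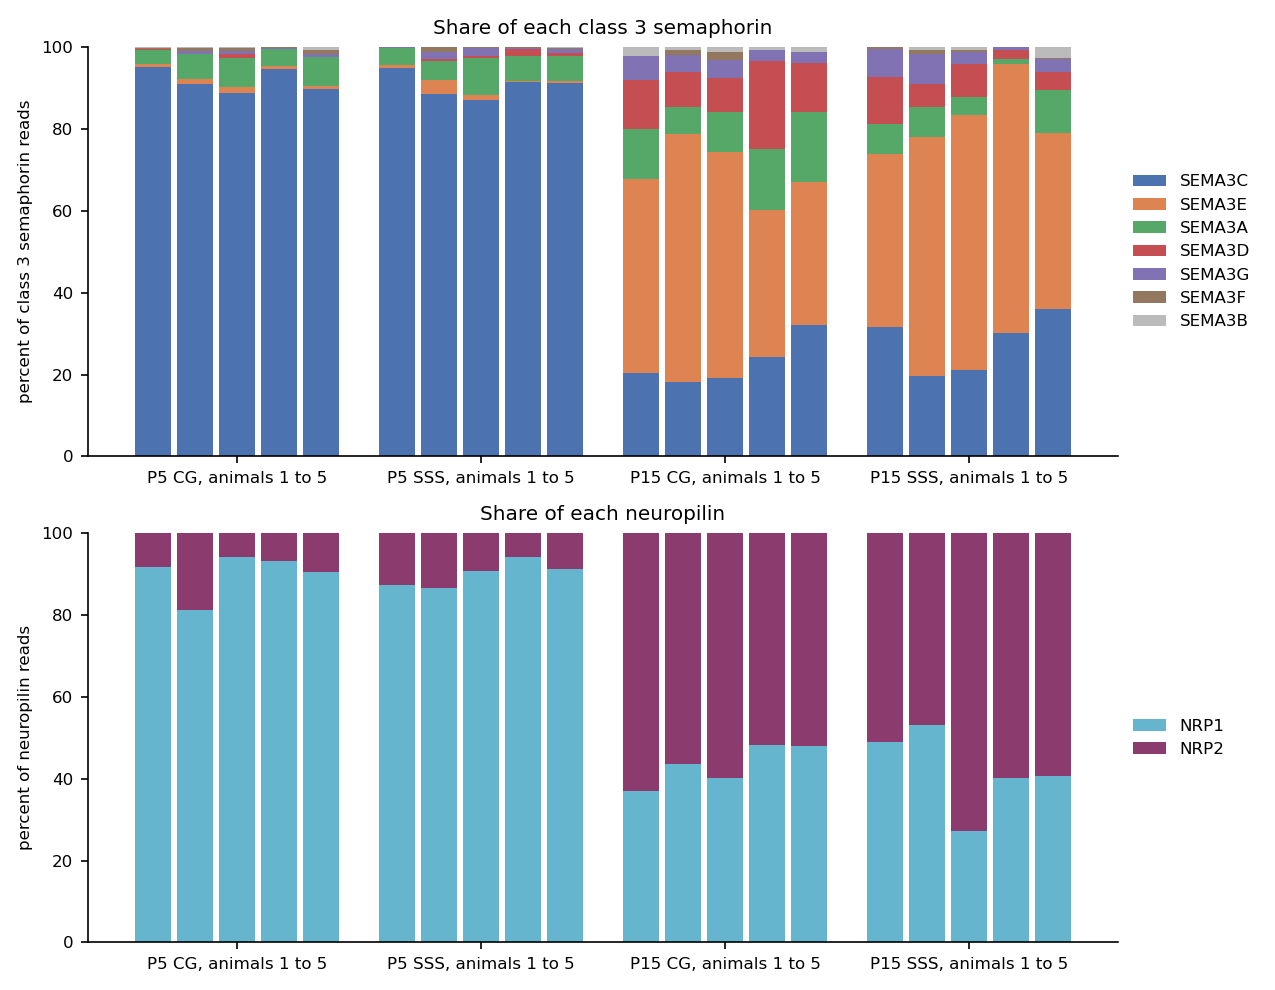
Percent of class 3 semaphorin reads taken by each ligand (upper panel) and percent of neuropilin reads taken by *NRP1* and *NRP2* (lower panel) in each of the 20 libraries, with animals 1 to 5 from left to right in each group. *SEMA3C* fills at least 87.1% of every P5 bar and at most 35.9% of every P15 bar, and the mean share of *NRP2* is 9.88% in the P5 CG and 56.6% in the P15 CG.

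*SEMA3A*, which repels axons, had lower levels at P15. It measured 24.7, 36.0, 68.5, 49.6 and 60.7 CPM in the P5 CG and 20.4, 13.7, 17.4, 21.3 and 27.6 CPM in the P15 CG, where only the P5 library of animal 1 fell within the P15 range. In the SSS it measured 31.5, 32.6, 68.3, 72.4 and 51.2 CPM at P5 and 15.0, 14.9, 10.6, 2.25 and 22.5 CPM at P15, and there the ages did not overlap. The 2.25 CPM come from the sparse P15 SSS library of animal 4, where 5 reads were counted. The fitted level was 2.38-fold lower at P15 in the CG (log2 fold change -1.25, SE 0.39) and 3.89-fold lower in the SSS (-1.96, SE 0.40). Without that library the SSS value was -1.69 (SE 0.35).

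*SEMA3D*, a guidance cue studied mainly in zebrafish, rested on few reads at P5. Its P5 CG values were 1.04, 0.300, 8.67, 0 and 0 CPM, and 31 of the reads behind these values came from animal 3. At P15 in the CG all libraries had it, with 19.8, 18.2, 14.6, 30.9 and 19.3 CPM, above every P5 library of that region. Its SSS values were 1.07, 3.44, 4.52, 18.1 and 5.42 CPM at P5 and 24.2, 11.6, 18.7, 4.06 and 9.41 CPM at P15, and the ages overlapped. The fitted level was 9.92-fold higher at P15 in the CG (log2 fold change 3.31, SE 0.85) and 2.10-fold higher in the SSS (1.07, SE 0.78). The CG value depends on animal 3 of P5, without which it was 5.84 (SE 0.94). The SSS value depends on animal 4 of P5, without which it was 1.90 (SE 0.77). The P5 SSS library of that animal had the lowest RNA integrity number of all libraries in the study's quality control. Its part here was not tested. By RT-qPCR, a PCR measure of single genes, the study found *SEMA3D* in the same RNA lower at P15 in the CG, without significance. In the SSS it was higher at P15, which passed the study's threshold.

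The other 3 ligands were near the limit of these libraries. *SEMA3B* had 0 to 21 reads per library and did not pass the filter on low counts, so it was not tested. Its mean was 2.498 ± 2.55 CPM in the P5 CG, 0.396 ± 0.653 CPM in the P5 SSS, 2.11 ± 0.991 CPM in the P15 CG and 1.73 ± 2.35 CPM in the P15 SSS (SD, n = 5). *SEMA3F* measured 0.695, 4.501, 6.99, 3.19 and 7.91 CPM in the P5 CG and 0, 2.61, 3.25, 0 and 0 CPM in the P15 CG. In the SSS it measured 0.358, 9.28, 2.14, 3.62 and 2.71 CPM at P5 and 0.863, 2.31, 1.09, 0 and 0.672 CPM at P15. The P15 values are mostly the lower ones and the ages overlap in both regions. The difference did not pass the threshold by edgeR's quasi-likelihood test, with a log2 fold change of -1.90 (SE 1.08, FDR = 0.278) in the CG and -1.81 (SE 1.095, FDR = 0.301) in the SSS. These moved to -2.72 (SE 1.29) in the CG without animal 3 of P15 and to -1.08 (SE 1.19) in the SSS without animal 2 of P5. In 12 cases a member had no read in a library. There 3 reads, taken as a rough upper limit for a count of 0, would have been 0.863 to 1.35 CPM. This limit covers counting error alone.

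*SEMA3G*, which is known from blood vessels in the mouse, had 1.04, 4.20, 6.99, 2.32 and 6.64 CPM in the P5 CG and 9.88, 8.798, 7.67, 3.81 and 4.36 CPM in the P15 CG. In the SSS the values were 0.716, 10.7, 13.3, 2.89 and 8.13 CPM at P5 and 14.4, 14.5, 7.06, 1.35 and 6.39 CPM at P15. The ages overlapped widely in both regions. The log2 fold change with age was 0.70 (SE 0.71, edgeR FDR = 0.598) in the CG and 0.29 (SE 0.70, edgeR FDR = 0.843) in the SSS.

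The receptors moved in opposite directions. *NRP1*, the main receptor of *SEMA3A*, measured 54.2, 27.0, 49.8, 43.5 and 41.7 CPM in the P5 CG and 15.8, 22.5, 29.5, 19.4 and 16.7 CPM in the P15 CG. SSS levels were 29.4, 37.8, 48.6, 39.8 and 52.7 CPM at P5 and 30.2, 25.7, 16.8, 13.1 and 20.2 CPM at P15. In each region a single P5 library lay within the P15 range, that of animal 2 in the CG and that of animal 1 in the SSS. *NRP1* fell with age in both regions by edgeR's quasi-likelihood test, 2.07-fold in the CG (log2 fold change -1.05, SE 0.30, FDR = 0.0187) and 1.96-fold in the SSS (-0.97, SE 0.30, FDR = 0.0282). Both calls lay close to the threshold. In the CG the FDR over 18 alternatives ran from 0.00444 to 0.0602, and the call was lost without animal 3 of P5 (FDR = 0.0538) or animal 5 of P15 (FDR = 0.0602). In the SSS it ran from 0.0105 to 0.0912, and the call was lost without animal 3 (0.0779) or 5 (0.0912) of P5, without animal 3 (0.0870), 4 (0.0671) or 5 (0.0657) of P15, and without the sparse library alone (0.0618).

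*NRP2*, the main receptor of *SEMA3F*, measured 4.87, 6.30, 3.08, 3.19 and 4.43 CPM in the P5 CG and 27.0, 29.0, 43.9, 20.9 and 18.2 CPM in the P15 CG. SSS levels were 4.298, 5.84, 5.00, 2.53 and 5.12 CPM at P5 and 31.3, 22.8, 44.8, 19.4 and 29.6 CPM at P15. Every P15 library lay above every P5 library. The fitted level was 6.35-fold higher at P15 in the CG (log2 fold change 2.67, SE 0.42) and 6.44-fold higher in the SSS (log2 fold change 2.69, SE 0.42). With *NRP1* lower and *NRP2* higher, their summed level was 47.6 ± 9.58 and 46.2 ± 9.59 CPM at P5 in the CG and SSS, and 48.6 ± 15.1 and 50.8 ± 11.99 CPM at P15 (SD, n = 5). *NRP2* took 9.88 ± 5.25% of neuropilin reads in the P5 CG and 10.1 ± 3.04% in the P5 SSS, against 56.6 ± 4.87% in the P15 CG and 57.9 ± 9.91% in the P15 SSS (SD, n = 5). The sum and the shares are of reads without correction for gene length, and not of transcripts.

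**Figure D3:**
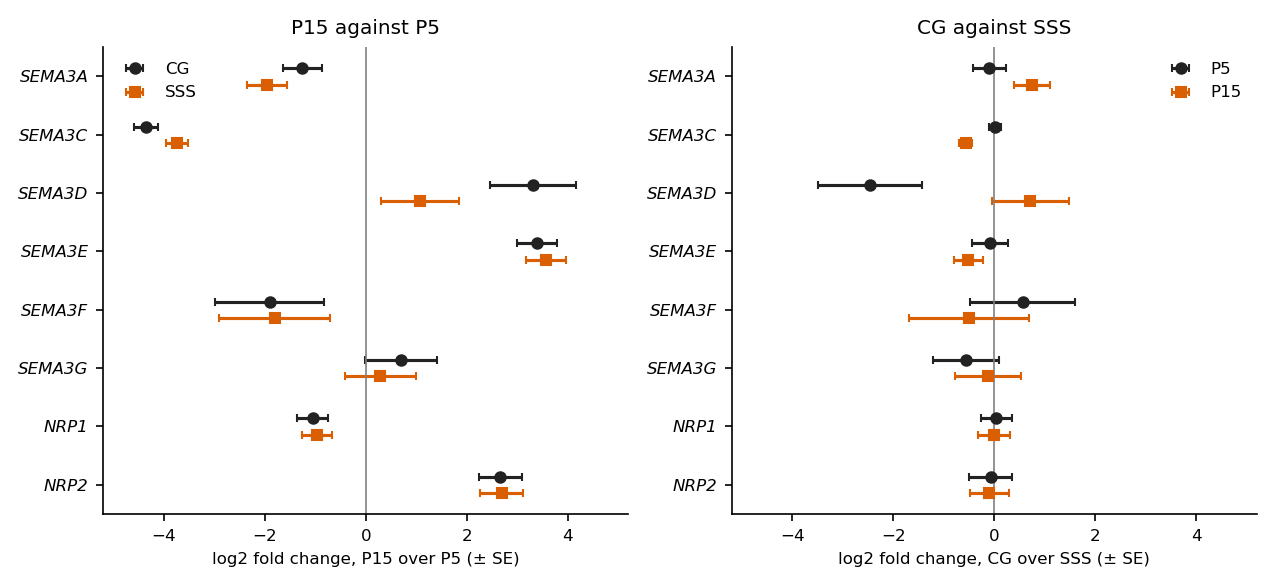
Fitted log2 fold changes of the 8 members that passed the filter, with bars of 1 SE. The left panel compares P15 with P5 in the CG (circles) and SSS (squares), and the right panel compares CG with SSS at P5 (circles) and P15 (squares). The changes with age of *SEMA3C* are -4.35 and -3.74, those of *NRP2* are 2.67 and 2.69, and all regional differences but that of *SEMA3D* at P5 lie within 1 of 0.

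Over all genes tested, 13.1% were called between the ages in the CG, where 7.39% were higher at P15 and 5.72% lower. The SSS had 14.6% called, of which the higher ones made 8.19% and the lower ones 6.46% of all genes. Of the 8 tested members, 6 were called in the CG, of which 3 (*SEMA3D*, *SEMA3E* and *NRP2*) were higher and 3 (*SEMA3A*, *SEMA3C* and *NRP1*) lower at P15, and 5 were called in the SSS, where *SEMA3D* was not. In the CG *SEMA3A* was under the threshold in 13 of 19 settings, and its call was lost without animal 3, 4 or 5 of P5 or animal 1, 2 or 3 of P15, with log2 fold changes of -1.41 to -1.08 over all settings. Libraries of the ages did not overlap for 4 members in the CG, against 12.8% of all genes, and for 4 members in the SSS, against 9.93%. Since the age comparison had been used in choosing the members, these counts only describe them. The median log2 fold change of the 8 was -0.17 in the CG and -0.34 in the SSS, beside -0.01 for all genes in both.

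Markers of several cell types moved with age in the same libraries. For comparison, 7.39% of all genes were called higher and 5.72% lower at P15 in the CG, and 8.19% and 6.46% in the SSS. Of the excitatory neuron markers, 8 of 10 tested were lower at P15 in the CG and 9 of 10 in the SSS, and their summed level was 1048 to 1667 CPM in the P5 CG and 1069 to 1970.1 CPM in the P5 SSS, against 252 to 319 CPM in the P15 CG and 293 to 419.8 CPM in the P15 SSS. *SEMA3C* measured 57.7 ± 10.0 CPM per 100 CPM of these markers in the P5 CG and 46.4 ± 15.3 in the P5 SSS, against 13.7 ± 2.81 in the P15 CG and 15.9 ± 2.87 in the P15 SSS (SD, n = 5). The same ratio for *NRP1* was 3.25 ± 1.09 and 2.43 ± 0.433 at P5 in the CG and SSS, and 7.48 ± 2.60 and 5.99 ± 2.15 at P15 (SD, n = 5). For *SEMA3A* it was 3.41 ± 0.741 and 2.94 ± 0.812 at P5, and 7.08 ± 1.64 and 3.64 ± 1.84 at P15 (SD, n = 5). The markers in the sum differed among themselves, and the log2 fold change of *NEUROD6* was -3.92 (SE 0.24) in the CG and -3.87 (SE 0.24) in the SSS, beside -0.67 (SE 0.23) and -0.82 (SE 0.23) for *DCX*.

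Of the radial glia markers, 4 of 9 were higher at P15 in each region (*PTPRZ1*, *SLC1A3*, *LIFR* and *FAM107A*) and 1 was lower, *FABP7*, with log2 fold changes of -1.22 (SE 0.26) in the CG and -0.98 (SE 0.26) in the SSS. Markers of other glia moved in the direction of *SEMA3E* and *NRP2*. Of the astrocyte markers, 6 of 7 tested were higher at P15 in each region, with sums of 62.6 to 249 CPM at P5 and 508 to 846 CPM at P15 over both regions. Of the oligodendrocyte lineage markers, 6 of 7 were higher in each region, with sums of 198 to 534 CPM at P5 and 874 to 3610.4 CPM at P15, and *MAG* had no read in any P5 library. Of the microglia markers, 4 of 7 in the CG and 5 of 7 in the SSS were higher, with sums of 39.99 to 101 CPM at P5 and 185 to 385 CPM at P15. Of the 10 endothelial and mural markers, genes of cells that also carry neuropilins, edgeR called 0 in either region (5 in the CG and 3 in the SSS had an unadjusted p under 0.05, all higher at P15). Their sums were 101 to 285 CPM at P5 and 225 to 357 CPM at P15. The interneuron markers were divided, with 2 higher and 3 lower of 9 in each region and sums of 582 to 847 CPM at P5 and 867 to 1602 CPM at P15. Of the intermediate progenitor markers 3 of 4 were lower in each region, with sums of 41.6 to 146 CPM at P5 and 1.35 to 27.99 CPM at P15, and of 4 tested meningeal markers 1 was higher, in the SSS. These counts stand beside 7.39% of all genes called higher and 5.72% lower in the CG, and 8.19% and 6.46% in the SSS. A single called gene in a short list, as for the meningeal markers, is no result about the list. The part of these cell types in the changes of the members was not tested.

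At P5 the 7 tested members other than *SEMA3D* did not differ detectably between CG and SSS. Of all genes 0.0395% were called at this age, which is 5 genes, and 0 of these 7 members were among them. For the 7 members other than *SEMA3D*, the log2 fold change of CG over SSS in the fit by edgeR that held the animal as a block ran from -0.56 for *SEMA3G* (SE 0.66, FDR = 0.884) to 0.56 for *SEMA3F* (SE 1.03, FDR = 0.944), and 0 of these 7 had an unadjusted p under 0.05. DESeq2 and limma-voom called 0 of these 7 as well. For *SEMA3C* it was 0.02 (SE 0.12, FDR = 0.987), the tightest estimate of the set. *SEMA3C*, *SEMA3A*, *SEMA3E*, *NRP1* and *NRP2* were each higher in the CG in 3 of 5 animals and lower in 2.

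*SEMA3D* at P5 is described without a test, since this difference had been named from these libraries. Within an animal its CG level was below its SSS level in 4 of 5 animals, by 18.1 CPM at most, and higher in animal 3 by 4.14 CPM. In animal 1 the regions were nearly level (1.04 against 1.07 CPM, 3 reads each). The log2 fold change was -2.46 (SE 1.03), and it moved to -3.12 (SE 1.121) without animal 1, -3.88 (SE 1.08) without animal 3, -1.38 (SE 0.94) without animal 4 and -1.79 (SE 1.08) without animal 5. In the study's RT-qPCR of the same RNA the direction was the opposite, higher in the CG, without significance. The authors did not regard the sequencing result for this gene as upheld.

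At P15 each of the 5 animals had less *SEMA3C* in its CG than in its SSS. The pairs were 33.9 against 66.1, 38.1 against 39.9, 33.9 against 49.7, 35.0 against 56.8 and 52.3 against 76.3 CPM, so that the SSS had between 1.05 and 1.95 times the CG level. The log2 fold change was -0.57 (SE 0.13, unadjusted p = 2.5e-04), and the FDR of edgeR's quasi-likelihood test was 0.382, so it was not called among all genes. It passed the threshold with DESeq2 (FDR = 0.0326) and without the filter on low counts (FDR = 0.0372), and its FDR lay between 0.140 and 1.00 in the other 16 alternatives. The SE depended on the model. It was 0.19 with the newer quasi-likelihood test, 0.25 with limma-voom, 0.22 with only the groups compared and 0.21 without the replicate block. With DESeq2 and without the filter it was 0.14, and with library size alone 0.13. Without the sparse library the log2 fold change was -0.54 (SE 0.14). Beside it, 5 of 5 animals also had lower summed excitatory neuron markers in the CG at P15, with means of 283 and 362 CPM, and likewise in 5 of 5 at P5, when *SEMA3C* was lower in 2 of 5. For summed interneuron markers the CG was the lower region in 5 of 5 animals at P15, and the summed radial glia markers were higher in 5 of 5 at both ages. The part of these cells in the difference was not tested.

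No other member was called at P15. Of all genes 0.0158% were called, which is 2 genes, and 0 of the 8 members, while 2 members (*SEMA3A* and *SEMA3C*) had an unadjusted p under 0.05, as did 471 of all 12669 genes. *SEMA3A* had its higher level in the CG in 4 of 5 animals, with a log2 fold change of 0.75 (SE 0.36, edgeR FDR = 1.00), but the value rested on the sparse library and was 0.33 (SE 0.29) without it. In the CG, 4 of 5 animals had less *SEMA3E* (-0.52, SE 0.29) and 3 of 5 more *SEMA3D* (0.72, SE 0.76), and without the sparse library these were -0.34 (SE 0.29) and 0.24 (SE 0.72). The neuropilins hardly differed, with -0.01 (SE 0.32) for *NRP1* and -0.10 (SE 0.38) for *NRP2*.

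**Figure D4:**
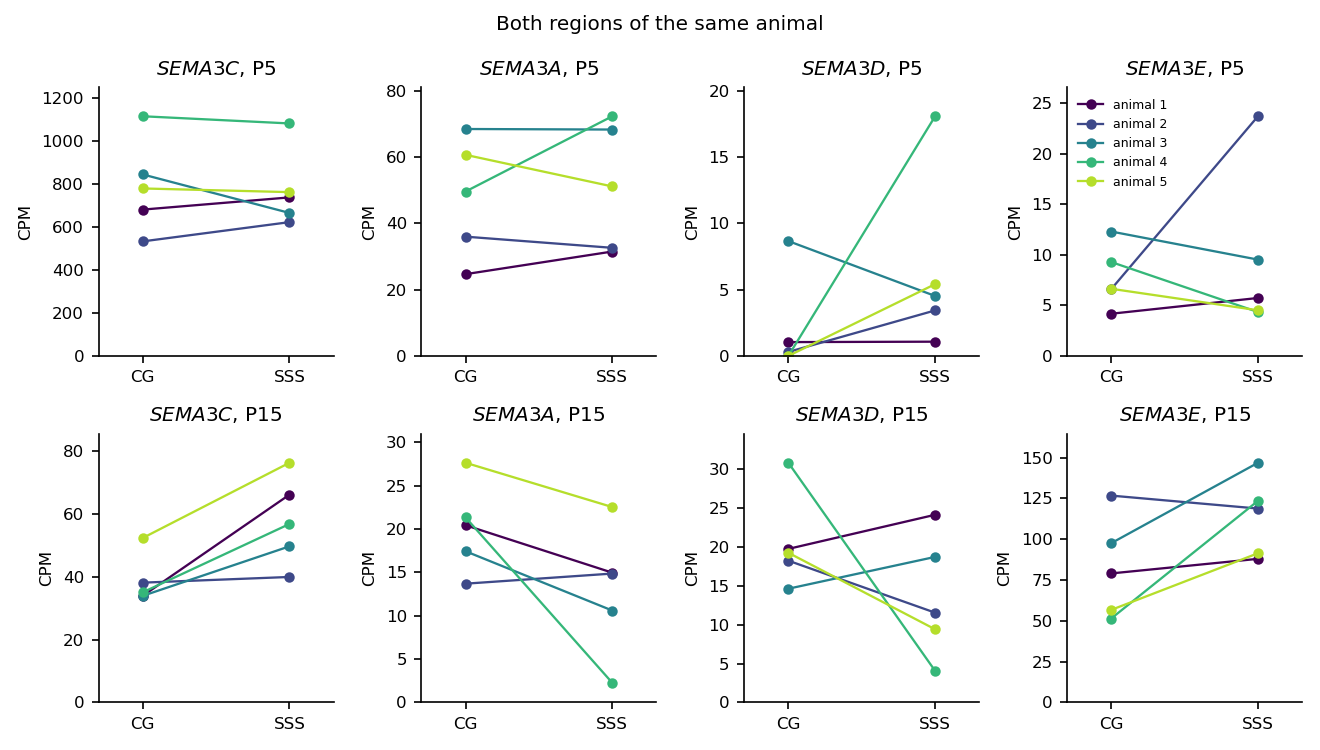
Levels of *SEMA3C*, *SEMA3A*, *SEMA3D* and *SEMA3E* in CPM in the CG and SSS of the same animal, with 1 line per animal, at P5 (upper row) and P15 (lower row). The axes differ between panels and start at 0. For *SEMA3C* at P15 all 5 lines go up from CG to SSS, whereas at P5 they go up in 2 animals and down in 3.

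The change with age was compared between the regions by the difference of the regional differences (P15 minus P5). Of all genes 0% were called, and so none of the 7 tested members other than *SEMA3D*. By edgeR 488 genes, *SEMA3C* among them, had an unadjusted p under 0.05, while DESeq2 called 1 gene and 0 of these 7 members. For *SEMA3C* the difference was -0.58 (SE 0.18, unadjusted p = 0.0032, FDR = 0.998), so that its lower level at P15 was the more marked in the CG, though not beyond what the test over all genes allows. For *SEMA3A* it was 0.85 (SE 0.49), and 0.43 (SE 0.39) without the sparse library. For *SEMA3E* it was -0.43 (SE 0.45), for *NRP1* -0.05 (SE 0.45) and for *NRP2* -0.03 (SE 0.59). The difference for *SEMA3D* holds the P5 regional value above and is given without a test as 3.18 (SE 1.28). It ran up to 4.59 (SE 1.28) without animal 3 of P5, and was 3.82 (SE 1.33) without animal 1, 2.09 (SE 1.16) without animal 4 and 2.502 (SE 1.3004) without animal 5 of P5.

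Plexins carry the signal into the cell. Of 8 tested plexins 0 were called higher in either region, 1 was lower in the CG and 2 were lower in the SSS, beside 13.1% and 14.6% of all genes called in either direction in the CG and SSS. *PLXNA4*, the plexin A best known with *SEMA3A*, fell from 46.9 to 17.7 CPM in the CG (log2 fold change -1.39, SE 0.33, edgeR FDR = 0.00355) and from 69.3 to 24.2 CPM in the SSS (-1.52, SE 0.32, edgeR FDR = 0.00139). *PLXNA2* fell in the SSS (-1.25, SE 0.27, edgeR FDR = 0.0018) and missed the threshold in the CG (-0.78, SE 0.27, edgeR FDR = 0.054). The study had listed *PLXNA2* and *PLXNA4* among the age changes of the SSS in these libraries. Their SSS FDR is therefore no independent evidence. *PLXND1*, the direct receptor of *SEMA3E*, was not called, with 1.24 (SE 0.46, edgeR FDR = 0.0704) in the CG and 0.93 (SE 0.45, edgeR FDR = 0.173) in the SSS. The median of the 8 was -0.11 in the CG and -0.30 in the SSS, beside -0.01 for all genes.

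Of the genes listed here as adhesion molecules and other partners of the receptor complex, 6 were tested, and in each region 1 rose and 2 fell. Over all genes, 7.39% were called higher and 5.72% lower at P15 in the CG, and 8.19% and 6.46% in the SSS. *L1CAM*, which joins NRP1 in the response to *SEMA3A*, fell (-1.58, SE 0.26 in the CG and -1.54, SE 0.26 in the SSS). *TMEFF1*, which the study had listed under axon guidance from these libraries, fell as well (-0.95, SE 0.20 and -1.23, SE 0.20). Its part in the receptor complex was not tested. *NRCAM*, which pairs with NRP2, rose (0.85, SE 0.21 and 0.68, SE 0.21). The medians of the 6 were -0.19 and -0.06, beside -0.01 for all genes in both regions. *PCSK5*, a convertase of the furin family, was the called gene among 6 tested proteases that process semaphorins, and it rose in both regions (2.11, SE 0.37 and 1.66, SE 0.36), with list medians of 1.39 and 1.45. In so short a list, 1 called gene is not far from the shares over all genes given above.

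Inside the cell, 2 of 21 tested signalling genes rose and 3 fell in the CG, and 1 rose and 4 fell in the SSS. Over all genes, the share called was 13.1% in the CG and 14.6% in the SSS. The kinase *FYN* rose in both (0.95, SE 0.22 and 1.27, SE 0.23), and *MICAL2*, an oxidase acting on actin, rose in the CG (3.30, SE 1.06). The collapsin response mediator *DPYSL5* fell in both (-1.10, SE 0.26 and -1.05, SE 0.25), as did *CDK5R1*, the activator of the kinase CDK5 (-1.36, SE 0.41 and -1.56, SE 0.40). *CRMP1* fell in the CG (-1.22, SE 0.28), and *DPYSL4* (-1.36, SE 0.43) and the small GTPase *RND3* (-1.11, SE 0.27) fell in the SSS. Medians of the 21 were -0.27 in the CG and -0.13 in the SSS. The test of the difference above called 0 genes, but a test over all genes cannot settle whether calls made in 1 region differ from the other. The difference was -0.79 (SE 0.37) for *CRMP1*, 0.34 (SE 1.61) for *MICAL2*, 0.59 (SE 0.54) for *DPYSL4* and 0.50 (SE 0.21) for *RND3*. *CRMP1* and *RND3* had an unadjusted p under 0.05 by edgeR, and none passed the FDR threshold.

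Among the VEGF ligands and receptors that share the neuropilins, 3 of 7 tested rose in the CG, 2 of 7 rose in the SSS, and 0 fell. Of all genes, 7.39% were called higher at P15 in the CG and 8.19% in the SSS. *KDR*, which forms a complex with NRP1, rose in both regions (0.85, SE 0.24 and 0.94, SE 0.24), as did *FLT1* (1.74, SE 0.29 and 1.27, SE 0.28), and *VEGFA* rose in the CG (1.28, SE 0.28). Medians of the 7 were 1.28 and 0.94. No gene of the plexin, partner, protease, signalling or VEGF lists was called by edgeR between CG and SSS at either age. Of the 48 genes, 5 at P5 and 3 at P15 had an unadjusted p under 0.05, as did 1017 and 471 of all 12669 genes. Several of these genes had been named from the same libraries, so that the lists are no independent evidence.

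**Figure D5:**
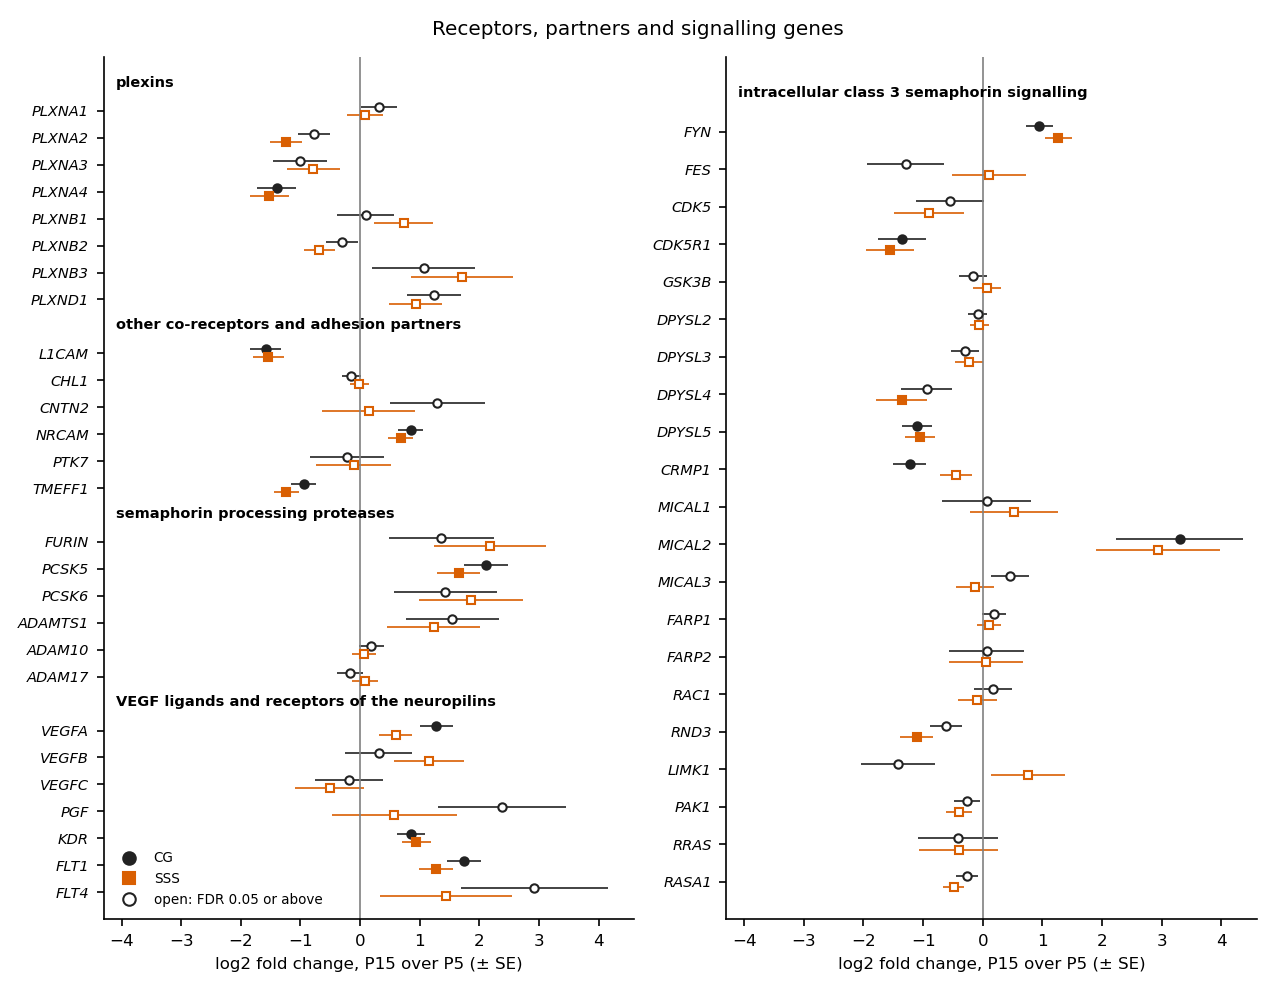
Fitted log2 fold changes of P15 over P5 with bars of 1 SE for 48 genes around the class 3 semaphorins, in the CG (circles) and SSS (squares). Filled symbols have an FDR under 0.05. Of the 8 plexins *PLXNA4* is filled in both regions and *PLXNA2* in the SSS, all to the left of 0, while *KDR*, *FLT1*, *NRCAM*, *FYN* and *PCSK5* are filled to the right in both.

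The genes whose log2 CPM over the 20 libraries resembled a member most were named for 5 members, as a description. All 20 points share the division between ages, so the correlation (r) of deviations from the 4 group means is given beside each. *SEMA3C* was most like *NEUROD6* (r = 0.99, 0.54 for the deviations), a transcription factor of excitatory neurons, *CD24* (0.98, 0.79) and *DPY19L1* (0.98, 0.59). *SEMA3A* was most like *RBBP4* (0.92, 0.80) and *NSG2* (0.90, 0.79), among the genes reported here. *NRP1* was most like the neuronal genes *MYT1L* (0.87, 0.58), *SEZ6* (0.87, 0.48) and *BASP1* (0.86, 0.46).

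*SEMA3E* and *NRP2*, which were higher at P15, resembled other genes. *SEMA3E* was most like *SVIL* (r = 0.96, 0.65 for the deviations), *APC* (0.95, 0.35) and *MAML2* (0.95, 0.66). *NRP2* was most like *NT5E* (0.97, 0.64), *HAPLN1* (0.96, 0.62), a link protein of the extracellular matrix, and *SPARCL1* (0.96, 0.54), a secreted protein of glia and vessels. Libraries of 1 animal and of 1 depth are shared by all genes, and no test was made of these values.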

How the data were processed

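RNA of laser-captured oSVZ was measured in 20 libraries. According to the study's methods and the submitters' processing notes, it was amplified without molecular identifiers and sequenced in read pairs, and the authors used Trimmomatic 0.38 for trimming and FastQC 0.11.9 for quality. Alignment was to MusPutFur1.0 by STAR 2.7.9a, and featureCounts gave counts per Ensembl gene. The deposited values are these raw counts, with reads that mapped to several places left out. No strand setting was found in the sources used, so reads of genes that overlap a member on the other strand cannot be told apart. In the deposited table the symbols follow the sorted identifiers, and each identifier took the symbol at its sorted rank. Under this pairing 12.3% of consecutive named pairs lie near each other in the gene order of RefSeq, against 1.69% when read line by line. The median level of 30 genes named as ribosomal proteins was 716 CPM under it and 1.99 CPM line by line, here without TMM scaling.

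Counts were tested in R 4.3.3 with edgeR 4.0.16 (filterByExpr with minimum count 10 and total 15, TMM, quasi-likelihood F-test of the older kind), which left 12669 genes. The regions were compared with the animal as a block, and the ages by group means. FDR is Benjamini-Hochberg adjusted over all genes, with a threshold of 0.05. Both libraries of an animal carry its name, and the correlation of their deviations from the group means was 0.046 to 0.246 (median 0.141). For different animals of 1 age it was -0.16 to 0.133 (median -0.0466), so the ranges overlap. log2 CPM used a prior count of 2 and fitted folds one of 0.125. Alternatives used limma 3.58.1, DESeq2 1.42.0, other scaling and filters, other models and each animal left out. Figures were drawn with matplotlib 3.10.9.

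The members and the gene lists were chosen with earlier results of these data known. The genes named are the 9 members, from each pathway list those called with age (at most 3 in each direction) or with region, and for 5 members the 3 named genes with the highest Pearson correlation. One gene that this rule names is not reported here. *PLXND1* was added after its values were seen. The precision of a value follows its reads, and SD and SE cover the spread between animals.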

Additional observations from a re-analysis of the deposited data

Results flagged for a closer look

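In 5 of the 36 sets of 5 libraries (9 members in 4 groups), 1 library lay apart from the other 4 by Dixon's test, which chance alone does in about 1 of 20 sets. In the P15 CG animal 5 had the highest *SEMA3C*, 52.3 CPM, against 33.9 to 38.1 CPM in the others. For *SEMA3E* the P5 SSS of animal 2 stood out with 23.7 CPM against 4.34 to 9.53 CPM. For *SEMA3D* it was the P5 CG of animal 3 with 8.67 CPM against 0 to 1.04 CPM and the P5 SSS of animal 4 with 18.1 CPM against 1.07 to 5.42 CPM, in different animals. For *SEMA3B* it was the P15 SSS of animal 5 with 5.71 CPM against 0 to 1.63 CPM. No member had a regional difference that went one way in all animals at P5 and the other way in all at P15.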

How the results depend on the processing

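Members called between the ages numbered 4 to 6 in the CG and 4 to 5 in the SSS over all alternatives. *SEMA3A* in the CG lost its age call in 6 alternatives, each with an animal left out. For *NRP1* the age call was also lost without the filter (FDR = 0.0601 in the CG, 0.0858 in the SSS) and, in the SSS, with library size alone (0.0566) or only the groups compared (0.0869). Between CG and SSS, genes called at P5 numbered 5, against 3 with library size alone, 106 with DESeq2, 69 without the filter, 27 with the newer quasi-likelihood test, 54 with limma-voom and 0 without the replicate block, and 1 to 52 when an animal or the sparse P15 SSS library alone was left out. At P15 they numbered 2, against 11 with DESeq2, 18 without the filter, 4 with the newer quasi-likelihood test, 9 with limma-voom, 0 with only the groups compared, 0 without the replicate block, and 0 to 2 when an animal or that library was left out. *SEMA3C* was the 1 member called at P15, with DESeq2 and without the filter. For the difference between regional differences, 0 genes were called, against 1 with DESeq2, 5 without the filter and 0 to 1 when an animal or that library was left out. The causes were not tested.

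Regional log2 fold changes near 0 turned direction. At P15 *SEMA3F* was 0.35 with the newer quasi-likelihood test and 0.27 without the replicate block, and *NRP1* was 0.018 with library size alone. The difference of regional differences of *NRP2* was 0.0026 with the newer quasi-likelihood test. With an animal or that library left out, the P5 ranges were -0.18 to 0.017 (*SEMA3A*), -0.060 to 0.075 (*SEMA3C*), -0.37 to 0.41 (*SEMA3E*), -0.16 to 0.17 (*NRP1*) and -0.15 to 0.10 (*NRP2*). The P15 ranges were -1.54 to 0.10 (*SEMA3F*), -0.43 to 0.041 (*SEMA3G*), -0.23 to 0.22 (*NRP1*) and -0.21 to 0.047 (*NRP2*). The ranges of the difference were -0.28 to 0.17 (*NRP1*) and -0.20 to 0.11 (*NRP2*). Depth limits *SEMA3B*, *SEMA3D* at P5 and *SEMA3F*, which rest on few reads.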
